A study of Homo sapiens with 6 samples.

Results

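The 10 genes described here encode inflammatory cytokines and colony-stimulating factors, secreted proteins by which epithelial and tumour cells call in and sustain myeloid cells. They were chosen by gene ID from a fixed list and are 10 of the 54532 IDs measured. The choice was made with earlier results of these data known, so counts of these genes set beside those of all IDs are a description. All IDs in the files carry Ensembl's mouse prefix, and the names used here (Il6, Lif, Il1a, Il1b, Ccl2, Ccl7, Ccl20, Csf1, Csf2 and Csf3) are the Ensembl mouse names that the list gives for them. The libraries are labelled as human, from A549, an established lung adenocarcinoma line, so the species of the RNA and the identity of the line are unresolved. There are 6 libraries of RNA abundance, 2 each from groups labelled sh4, sh1 and NC. The series is titled as a knockdown of DSTY and sets knockdown cells against NC. The labels do not spell out sh4, sh1 or NC and do not give culture conditions, agents or time. Here sh4 and sh1 are read as knockdown groups and NC as their control, and nothing says that replicates came from separate cultures, so the p-values measure the spread between these libraries. No reference table used here names a mouse ID. The targeted gene, the defining markers of the labelled line and the 80 symbols of 6 cytokine pathway lists (0 matched) were therefore not analysed here.

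IL-6 and LIF are related cytokines that signal through a common receptor chain to STAT3. IL-1α and IL-1β act on one receptor, but IL-1α is active as made and works as an alarm signal, while IL-1β must be cut by an inflammasome protease. CCL2 and CCL7 attract monocytes through CCR2, CCL20 attracts dendritic cells and lymphocytes through CCR6, and the colony-stimulating factors CSF1, CSF2 and CSF3 support macrophages, granulocytes together with macrophages, and neutrophils. Many of these genes are induced through NF-κB and have short-lived mRNAs.

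Levels are given as FPKM, fragments per kilobase of gene, as the authors deposited them. Their scaling between libraries follows median-of-ratios size factors of the reads, not total reads. The whole reads behind each value could be recovered from the steps between low values, and came to between 14999786 and 18011798 per library. A fold change is a difference in log2(FPKM + 1) from a limma fit over all 6 libraries, a scale that understates changes of low genes. An ID was tested if it reached 1 FPKM in at least 2 libraries, and it was called if its Benjamini-Hochberg adjusted p was below 0.05. Of the 10 genes 9 were tested, and Il1b was not. Il6, Il1a and Csf3 passed this filter only through the sh1 libraries and Ccl20 only through the sh4 libraries, so those genes had to differ from the other groups. Their folds, p-values and ranks in comparisons with the group that passed them, and the counts that include them, are a description. Ratios of reads are pooled over the 2 libraries of a group and take the same deposited scaling, with 95% exact binomial intervals that cover counting error only.

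In sh1, 6 of the 9 tested genes rose against NC (Il6, Lif, Il1a, Ccl2, Ccl7 and Csf3), while Csf1 and Csf2 fell and Ccl20 was not called. That is 8 of 9 called, beside 65.6% of all 12755 IDs tested. The 6 higher genes stand beside 32.4% of all IDs called higher, and the 2 lower genes beside 33.2% called lower. A change of at least 1 log2 unit was found for 7 of the 9 genes, beside 9.97% of all IDs. In sh4, Ccl2, Ccl7, Ccl20 and Csf3 rose against NC, Il6, Lif, Il1a and Csf2 fell, and Csf1 was not called. The 8 called stand beside 68.1% of all IDs, the 4 higher beside 35.0% and the 4 lower beside 33.2%. A change of at least 1 log2 unit was found for 4 genes in sh4, beside 10.1% of all IDs. Without either sh1 library Il6, Il1a and Csf3 no longer reach the filter, and 5 genes are called in each comparison, 3 or 4 of them by at least 1 log2 unit in sh1. In sh4, 2 genes change by at least 1 log2 unit without sh4 replicate 1, when Ccl20 is not tested and Csf2 changes by less. Both comparisons use the same NC libraries. The plot of levels by library shows the replicates close to each other in most genes and the groups in a different order from gene to gene.

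**Figure D1:**
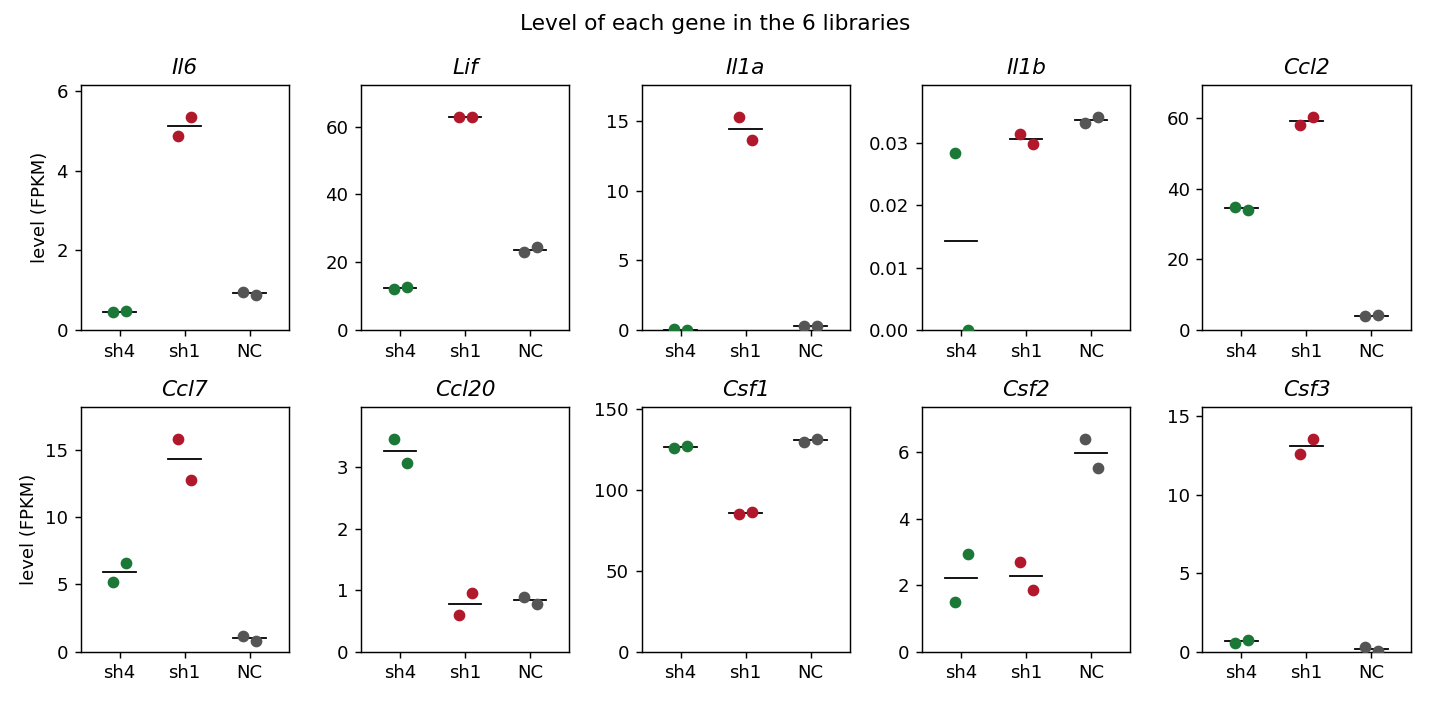
Level of each of the 10 genes in FPKM (vertical axis, linear, from 0, a separate scale per gene) in the libraries of sh4, sh1 and NC. Points are single libraries and the bar is the mean of 2. Il6, Lif, Il1a, Ccl2, Ccl7 and Csf3 are highest in sh1, Ccl20 in sh4, and Csf2 in NC, while Csf1 is lowest in sh1.

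The IL-6 family genes moved in opposite directions in the groups, up in sh1 and down in sh4. Il6 (ENSMUSG00000025746), the acute-phase cytokine, was at 0.446 and 0.471 FPKM in sh4, at 4.88 and 5.35 FPKM in sh1, and at 0.965 and 0.886 FPKM in NC. The groups do not overlap, with sh4 lowest and sh1 highest. These levels rest on 20 and 21 reads in sh4, 198 and 229 in sh1, and 37 and 33 in NC. The log2 fold change against NC was -0.40 in sh4 (SE 0.11, adjusted p = 0.0072, limma) and 1.67 in sh1 (SE 0.11, adjusted p = 3.1e-08, limma). Il6 passed the filter only through sh1, so its folds and p-values that involve sh1 are a description. By pooled reads, Il6 in sh4 was 0.495 times its NC level (interval 0.328 to 0.738), and in sh1 it was 5.53 times that level (4.29 to 7.23). Between the knockdown groups, sh4 held 0.0895 times the Il6 reads of sh1 (interval 0.0633 to 0.124). In these bulk libraries, fewer producing cells and less RNA per cell cannot be told apart.

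Lif (ENSMUSG00000034394) encodes leukemia inhibitory factor, which keeps mouse embryonic stem cells undifferentiated and acts as an inflammatory and tumour cytokine elsewhere. It showed the same order at a far higher level. Lif was at 12.1 and 12.6 FPKM in sh4, at 62.9 and 62.7 FPKM in sh1, and at 22.9 and 24.4 FPKM in NC. Its log2 fold change against NC was -0.89 in sh4 (SE 0.05, adjusted p = 5.0e-09, limma) and 1.37 in sh1 (SE 0.05, adjusted p = 6.4e-11, limma). The difference of sh4 from sh1 was -2.26 log2 units for Lif (SE 0.05) and -2.07 for Il6 (SE 0.11), both called. This scale understates the change of Il6. By reads, sh4 was at 0.196 times sh1 for Lif and at 0.0895 times for Il6, the larger difference. With 971 reads or more in every library, Lif is the family member whose values depend least on counting. The level of Lif per length was 27.1 and 26.7 times that of Il6 in sh4, 12.9 and 11.7 times in sh1, and 23.7 and 27.5 times in NC. The ratio was thus lower in both sh1 libraries than in the other 4, which overlap.

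Of the IL-1 pair, Il1a was high in sh1 and rested on 9 reads or fewer in every library of the other groups. Il1a (ENSMUSG00000027399), the alarm cytokine, was at 0.0549 and 0 FPKM in sh4, from 2 and 0 reads. It was at 15.3 and 13.6 FPKM in sh1, from 504 and 473 reads, and at 0.257 and 0.297 FPKM in NC, from 8 and 9 reads. Its log2 fold change in sh1 against NC was 3.59 (SE 0.10, adjusted p = 4.6e-12, limma), the 17th highest of the 12755 IDs tested. Il1a passed the filter only through sh1, so its folds, p-values and ranks that involve sh1 are a description. The pooled reads were 52.1 times higher in sh1 than in NC (interval 32.4 to 89.8). In sh4 the log2 fold change against NC was -0.31 (SE 0.10, adjusted p = 0.0125, limma), and by reads the sh4 level was 0.0994 times that in NC (interval 0.0111 to 0.419), or 0 without sh4 replicate 1 and 0.198 without sh4 replicate 2. This lower call in sh4 rests on few reads. It was lost without NC replicate 2 (-0.29, adjusted p = 0.0503) and without sh4 replicate 2 (-0.28, adjusted p = 0.0628), and over all alternatives its adjusted p ranged from 9.6e-07 to 0.0628. Between sh4 and sh1 the Il1a difference of -3.91 log2 units (SE 0.10) was the 4th lowest of all IDs. The ratio of reads, 0.00191, has an interval of 0.000231 to 0.00691, and was 0 without sh4 replicate 1 and 0.00380 without sh4 replicate 2.

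Il1b (ENSMUSG00000027398), which encodes the inflammasome-dependent IL-1β, had 1 and 0 reads in sh4, 1 and 1 in sh1, and 1 and 1 in NC. Equal reads fix these numbers only up to a common multiple, with 1 read per library the smallest that fits a whole gene length. No group exceeded 3 reads, the limit that a count of 0 allows, so a difference in Il1b was not detectable at this depth and no fold is given. With 3 reads in each library, the 1907 bp gene would have had a mean of 0.0854 FPKM in sh4, 0.0917 in sh1 or 0.101 in NC. In sh1, Il1a was thus at 487 and 457 times the Il1b level per length, a ratio whose lower term is a single read.

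The CC chemokines Ccl2 and Ccl7, both ligands of the monocyte receptor CCR2, rose in both knockdown groups, and Ccl20 rose in sh4. Ccl2 (ENSMUSG00000035385) was at 35.0 and 34.0 FPKM in sh4, at 58.2 and 60.5 FPKM in sh1, and at 3.90 and 4.13 FPKM in NC. No group overlaps another, and NC is lowest by a wide margin. The log2 fold change of Ccl2 against NC was 2.83 in sh4 (SE 0.07, adjusted p = 3.4e-12, limma) and 3.59 in sh1 (SE 0.07, adjusted p = 1.1e-13, limma). These are the 15th highest of all IDs in sh4 and the 18th highest in sh1. By reads, the Ccl2 level was 8.61 times that in NC for sh4 (interval 7.24 to 10.3) and 14.8 times for sh1 (12.5 to 17.7). The sh4 level was lower than that in sh1, by -0.76 log2 units (SE 0.07, adjusted p = 5.6e-07, limma).

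Ccl7 (ENSMUSG00000035373) followed the same order. It was at 5.20 and 6.60 FPKM in sh4, at 15.8 and 12.8 FPKM in sh1, and at 1.19 and 0.814 FPKM in NC, from 10 to 212 reads per library. Its replicates lie further apart than those of Ccl2, yet the groups do not overlap. The log2 fold change against NC was 1.79 in sh4 (SE 0.15, adjusted p = 1.8e-07, limma) and 2.93 in sh1 (SE 0.15, adjusted p = 1.3e-09, limma), and sh4 was below sh1 by -1.15 log2 units (SE 0.15). The Ccl2 level per length was 6.72 and 5.16 times that of Ccl7 in sh4, 3.67 and 4.74 times in sh1, and 3.29 and 5.07 times in NC. Both sh4 ratios lie above those of the other 4 libraries, and sh1 and NC overlap. The lower sh4 ratio, 5.16, is barely above the 5.07 of NC replicate 2, which rests on 10 Ccl7 reads. This order of the ratios was not tested.

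Ccl20 (ENSMUSG00000026166), the ligand of CCR6, had a different order. It was at 3.47 and 3.07 FPKM in sh4, at 0.590 and 0.959 FPKM in sh1, and at 0.892 and 0.780 FPKM in NC. Both sh4 libraries lie above all others, while sh1 and NC overlap. Against NC the log2 fold change was 1.22 in sh4 (SE 0.17, adjusted p = 2.5e-05, limma) and -0.06 in sh1 (95% interval -0.42 to 0.30, adjusted p = 0.78, limma). Ccl20 passed the filter only through sh4, so its folds and p-values that involve sh4 are a description. The reads behind Ccl20 were 91 and 80 in sh4, 14 and 24 in sh1, and 20 and 17 in NC. The sh4 level was 3.91 times that in NC (interval 2.73 to 5.74) and 4.20 times that in sh1 (2.94 to 6.13). The direct difference of sh4 from sh1 was 1.27 log2 units (SE 0.17, adjusted p = 2.5e-05, limma). Without sh1 replicate 1 the sign of the change in sh1 turned to 0.09, still not called.

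Each of the colony-stimulating factors had a pattern of its own. Csf1 (ENSMUSG00000014599), which sustains macrophages, was the most abundant of the 10 genes in every group. Its level was 125.8 and 127.2 FPKM in sh4, 85.0 and 86.4 FPKM in sh1, and 129.5 and 131.5 FPKM in NC, from 7503 reads or more per library. Csf1 fell in sh1 by 0.60 on the log2 scale against NC (SE 0.04, adjusted p = 1.6e-08, limma). In sh4 its change was -0.04 (95% interval -0.13 to 0.04, adjusted p = 0.32, limma). Under the deposited scaling, the sh4 libraries lie just below those of NC without overlap. By reads the sh4 level was 0.969 times that in NC (interval 0.952 to 0.987), a difference that did not pass the test between replicates. The size of this offset depended on the scaling. Total reads as the scale gave a log2 change of -0.026, and equal FPKM sums across libraries gave -0.001, neither of them called. Against sh1, Csf1 in sh4 was higher by 0.56 log2 units (SE 0.04, adjusted p = 6.0e-08, limma).

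Csf2 (ENSMUSG00000018916), which encodes the granulocyte-macrophage factor GM-CSF, was the only 1 of the 9 tested genes called lower in both groups. It was at 1.49 and 2.93 FPKM in sh4, at 2.69 and 1.84 FPKM in sh1, and at 6.41 and 5.54 FPKM in NC. The libraries of sh4 and sh1 overlap, and all 4 lie below NC. Its log2 fold change against NC was -1.16 in sh4 (SE 0.21, adjusted p = 0.00031, limma) and -1.10 in sh1 (SE 0.21, adjusted p = 0.00046, limma). The reads, 22 and 43 in sh4, 36 and 26 in sh1, and 81 and 68 in NC, correspond to 0.369 times the NC level in sh4 (interval 0.271 to 0.497) and 0.377 times in sh1 (0.276 to 0.511). Csf2 was not called between sh4 and sh1, with a difference of -0.05 log2 units (95% interval -0.51 to 0.41, adjusted p = 0.86, limma), whose sign turned with the scaling of the libraries and with the replicate left out.

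Csf3 (ENSMUSG00000038067), which encodes the neutrophil factor G-CSF, was at 0.575 and 0.771 FPKM in sh4, at 12.6 and 13.6 FPKM in sh1, and at 0.269 and 0.0461 FPKM in NC. In reads this was 15 and 20 in sh4, 297 and 338 in sh1, and 6 and 1 in NC. NC is lowest, sh4 slightly above it and sh1 far above both, with no overlap. The log2 fold change against NC was 0.54 in sh4 (SE 0.12, adjusted p = 0.0018, limma) and 3.61 in sh1 (SE 0.12, adjusted p = 3.7e-11, limma), the 15th highest of all IDs in sh1. Csf3 passed the filter only through sh1, so its folds, p-values and ranks that involve sh1 are a description. By reads, Csf3 in sh4 was 4.23 times its NC level (interval 1.85 to 11.3) and in sh1 82.3 times (39.7 to 205). The NC libraries decide these ratios. Without NC replicate 1, which leaves 1 read, they were 14.6 in sh4 and 284 in sh1, and without NC replicate 2 they were 2.50 in sh4 and 48.7 in sh1, so the size of the Csf3 change is known only roughly, while sh4 and sh1 lay above NC in each. The sh4 level was 0.0514 times that in sh1 (interval 0.0355 to 0.0722), and the difference of -3.07 log2 units (SE 0.12) was the 11th lowest of all IDs.

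**Figure D2:**
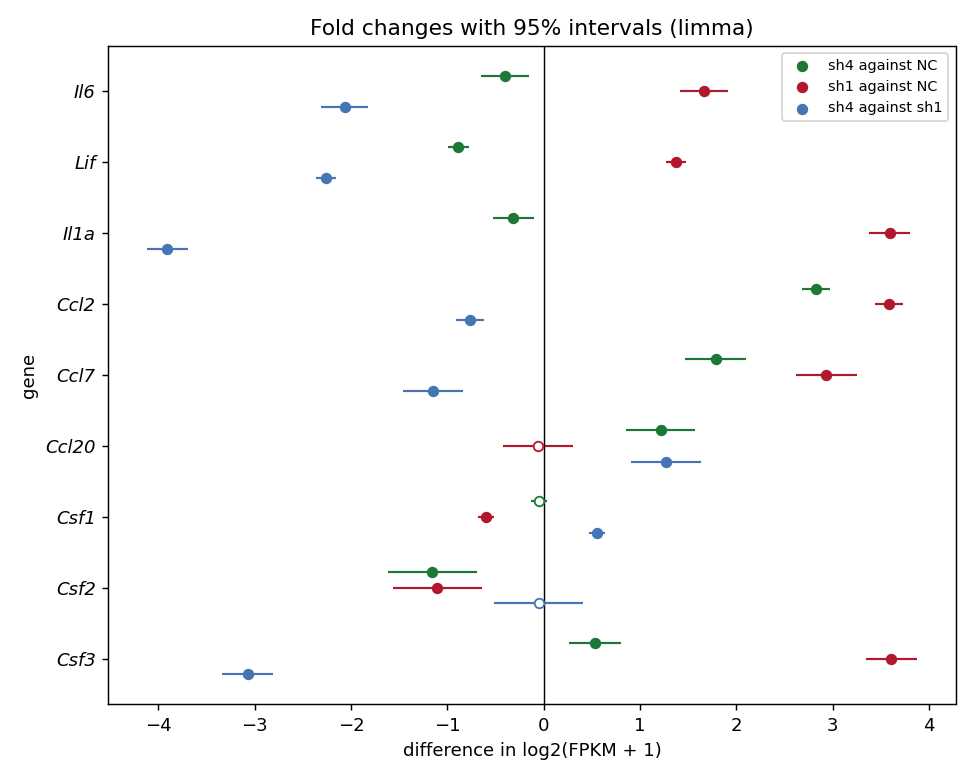
Difference in log2(FPKM + 1) for the 9 tested genes (horizontal axis), with 95% intervals from limma, for sh4 against NC, sh1 against NC and sh4 against sh1. Filled points passed the adjusted threshold and open points did not. Il6, Lif and Il1a lie on opposite sides of 0 against NC, Ccl2 and Ccl7 lie above 0 for both groups, and Csf2 lies below 0 for both.

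The direct comparison of sh4 with sh1 called 8 of the 9 genes, beside 56.0% of all IDs. The 6 lower genes (Il6, Lif, Il1a, Ccl2, Ccl7 and Csf3) stand beside 26.4% of all IDs, and the 2 higher genes (Ccl20 and Csf1) beside 29.5%. A difference of at least 1 log2 unit was found for 6 genes, beside 6.34% of all IDs. Without either sh1 library, when Il6, Il1a and Csf3 are not tested, these numbers are 5 and 3 genes. The median log2 fold change of the 9 genes was -1.15, and over all IDs it was 0.01. Against NC the medians of the 9 genes were -0.04 in sh4 and 1.67 in sh1, beside 0.01 and -0.01 over all IDs. The median size of change, signs left aside, was 0.89 in sh4 and 1.67 in sh1, beside 0.37 and 0.36 over all IDs. These medians include the genes that passed the filter only where they are high, so they describe the genes tested and support nothing further. The plot of all fold changes shows where the genes fall.

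**Figure D3:**
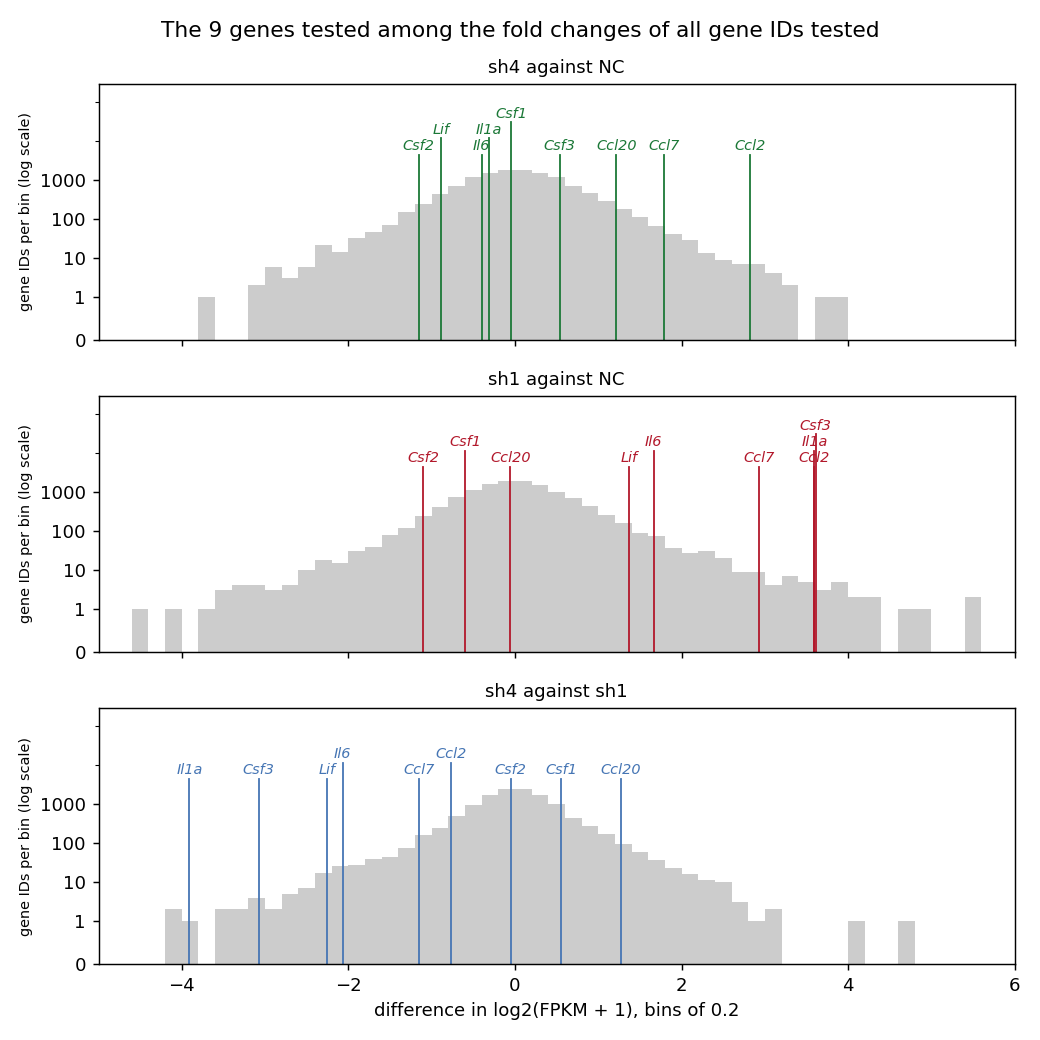
Number of gene IDs (vertical axis, log scale above 1) by difference in log2(FPKM + 1) (horizontal axis, bins of 0.2) for the 12755 IDs tested, in sh4 against NC, sh1 against NC and sh4 against sh1. Vertical lines mark the 9 genes. In sh1 against NC, Il1a, Ccl2 and Csf3 stand together between 3.59 and 3.61 in the right tail on this scale. By reads they differ, at 52.1, 14.8 and 82.3 times NC. In sh4 against sh1, Il1a and Csf3 stand in the left tail.

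The order of the genes by level per length also differed between the groups. In sh4 it ran Csf1, Ccl2, Lif, Ccl7, Ccl20, Csf2, Csf3, Il6, Il1a and Il1b, with overlap between neighbours only for the last pair. In sh1 it ran Csf1, Lif, Ccl2, Il1a, Ccl7, Csf3, Il6, Csf2, Ccl20 and Il1b, where Il1a, Ccl7 and Csf3 overlapped their neighbours among themselves. In NC it ran Csf1, Lif, Csf2, Ccl2, Ccl7, Il6, Ccl20, Il1a, Csf3 and Il1b. There Ccl7, Il6 and Ccl20 overlapped as neighbours, as did Il1a and Csf3. Csf2 was the third gene in NC, the sixth in sh4 and the eighth in sh1. Among all tested IDs, the mean level of Ccl2 exceeded 88.1% in sh4, 93.8% in sh1 and 35.0% in NC. For Il1a these shares were 0.5%, 70.1% and 1.4%, in the same order of groups. Il1a passed the filter only through sh1, so its shares in sh4 and NC had to be low, and these shares are a description.

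Summed over the 10 genes, the level was 184 and 188 FPKM in sh4, 258.0 and 257.7 FPKM in sh1, and 166 and 168 FPKM in NC. Csf1 made up 68.3% and 67.8% of this sum in sh4, 33.0% and 33.5% in sh1, and 77.9% and 78.1% in NC. Without Csf1 the sums were 58.3 and 60.5 FPKM in sh4, 173 and 171 FPKM in sh1, and 36.8 and 36.9 FPKM in NC. The chemokines Ccl2, Ccl7 and Ccl20 held 43.6 and 43.7 FPKM of it in sh4, 74.6 and 74.2 FPKM in sh1, and 5.97 and 5.72 FPKM in NC. Il6 and Lif together held 12.5 and 13.0 FPKM in sh4, 67.8 and 68.1 FPKM in sh1, and 23.9 and 25.3 FPKM in NC. The sums are dominated by the abundant genes, Csf1, Lif and Ccl2, and are given as levels with no test.

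**Figure D4:**
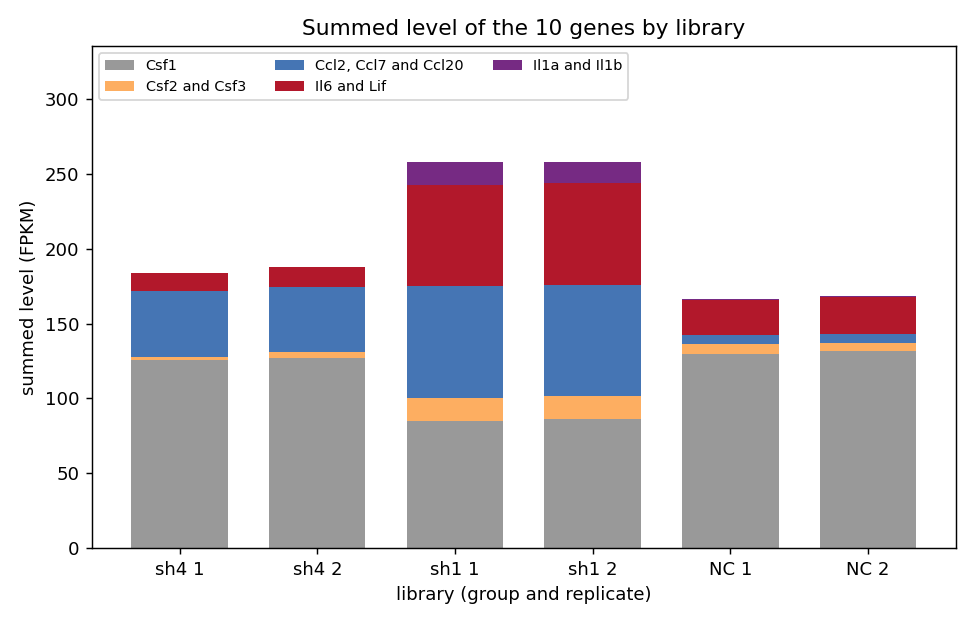
Summed level in FPKM (vertical axis, from 0) of the 10 genes in each library of sh4, sh1 and NC, stacked by gene group. The Csf1 segment is the largest in every library, and the chemokine segment is 43.6 and 43.7 FPKM in sh4, 74.6 and 74.2 FPKM in sh1, and 5.97 and 5.72 FPKM in NC.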

How the data were processed

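RNA was sequenced from 6 libraries in 3 groups of 2 (sh4, sh1, NC). The authors deposited 1 file per library with an FPKM value per gene ID, per the file headers. HISAT2 2.0.5 and the build hg18 are named in the submitters' processing notes. Which counter, annotation and strand setting were used is not given in the sources used here. Whole reads and gene lengths were recovered by searching for whole lengths that turn every FPKM of an ID into whole reads, which succeeded for 25747 of the 25747 IDs above 0, within 1e-09 FPKM plus a relative 1e-09 of the value. The deposited denominators are proportional to median-of-ratios size factors of these reads, so the FPKM values carry a between-library scaling.

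Values of log2(FPKM + 1) were tested with limma (3.58.1, under R 4.3.3), with 1 fit over 6 libraries (3 residual degrees of freedom), a robust empirical Bayes variance with its trend on mean reads, and Benjamini-Hochberg adjustment over 12755 IDs within each comparison. Tests were two-sided. The fit was also run on simulated reads with the same spread for all genes and changes only in well-counted genes, so that run does not bear on the low genes here. Alternatives changed the pseudocount (0.1), the filter, the scaling, the variance trend, the test (voom on recovered reads), the replicate block and the libraries. The members and lists were chosen with earlier results of these data known, and all 10 genes were to be named whatever their values. No sequence is shown, since the tables used here hold no mouse gene.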

Additional observations from a re-analysis of the deposited data

Results flagged for a closer look

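In limma's direct test of sh4 against sh1, 8 of the 9 tested genes were called, beside 56.0% of all IDs. Of these 8 genes, Il6, Il1a and Csf3 passed the filter on low values only through sh1, and Ccl20 only through sh4. Those 4 therefore had to differ, and their values are a description. Without either sh1 library 5 genes were called, with Il6, Il1a and Csf3 not tested. The difference, sh4 minus sh1 in log2 units, was -3.91 for Il1a, -3.07 for Csf3, -2.26 for Lif, -2.07 for Il6, -1.15 for Ccl7 and -0.76 for Ccl2, and both sh4 libraries lay below both sh1 libraries for each. It was 1.27 for Ccl20 and 0.56 for Csf1, with both sh4 libraries above. How many of all IDs separate in this way was not counted. This scale understates changes of low genes, and by reads Il6 differed more than Lif. Against NC, Il6, Lif and Il1a were called in opposite directions, the Il1a call in sh4 being lost without NC replicate 2 or sh4 replicate 2. The labels give no culture, handling or library preparation by group, and these cannot be told apart from the groups. With 2 libraries a group, no search for single outlying libraries was made.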

How the results depend on the processing

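With a mean of at least 5 FPKM required, only 4 genes were tested. Of these, 3 were called in sh4, 4 in sh1 and 4 between them, beside 5842, 5682 and 4963 of 7691 IDs. With any 1 library left out, 5 to 8 genes were called in each of the 3 comparisons. Without either sh1 library 6 genes pass the filter, and Il6, Il1a and Csf3 are not tested, and without either sh4 library Ccl20 is not. With the IDs kept as tested over all 6 libraries, an alternative chosen after seeing the data, 7 or 8 genes were called in sh4 against NC and 8 in both other comparisons, but the library left out then still decides the filter, so these counts say nothing about stability. A group left with 1 library borrows its spread from the other groups in these fits. Over all IDs, fits without 1 library made 7672 to 8454 calls in sh4, 7151 to 8400 in sh1 and 5669 to 7178 between sh4 and sh1. Every other alternative kept the 8 calls of each comparison. With the replicate block, 8836 IDs were called in sh4 against NC, 8503 in sh1 against NC and 7345 between sh4 and sh1, and the block changed no call of the 9 genes. The deviations from the group means of libraries with the same number had correlations of 0.12 for sh4 and NC, -0.01 for sh1 and NC, and -0.02 for sh4 and sh1, which establishes no pairing.

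Of 501 tests of single genes under the alternatives, 489 kept direction and call, 4 lost the call (all Il1a in sh4 against NC) and 8 turned sign, none of them called. These tests are not independent. Fits with the IDs kept repeat the folds of the fits without 1 library wherever both tested the gene. Several alternatives cannot move a fold, and cases where a gene missed the filter are not counted. The 489 is therefore no measure of stability. Ccl20 in sh1 against NC turned to 0.094 without sh1 replicate 1, and without any 1 library it lay between -0.207 and 0.094. Csf2 between sh4 and sh1 turned to 0.004 with total-read scaling, 0.033 after rescaling to the same FPKM sum, 0.137 without sh1 replicate 1 and 0.277 without sh4 replicate 1, and it was -0.381 without sh4 replicate 2; the cause was not tested. Fold changes of low genes grew with a pseudocount of 0.1 and more with voom, by over 1.5 times for these called genes. With voom they were -8.87 for Il1a, -3.45 for Il6 and 2.08 for Ccl20 in sh4 against sh1. In sh4 against NC they were -3.25 for Il1a, 2.26 for Csf3, 1.94 for Ccl20 and -0.999 for Il6, and in sh1 against NC 6.52 for Csf3 and 5.62 for Il1a. The count of all IDs changed by 1 log2 unit or more rose with the pseudocount of 0.1 to 2143 in sh4, 2053 in sh1 and 1285 between them, and with voom to 2267, 2159 and 1349. With a mean of at least 5 FPKM it was 764, 789 and 433. Depth limits Il1b in every group, Il1a in sh4, and Csf3 in NC.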
